A study of Sorghum bicolor with 12 samples.

Results

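Dw1 (Sobic.009G229800), Dw2 (Sobic.006G067700) and Dw3 (Sobic.007G163800) are sorghum dwarfing genes, whose recessive alleles were used in breeding to shorten the stem of grain sorghum. They were taken by these 3 gene IDs, 3 of 34129 genes in the count table, and all 3 passed the filter on low counts that left 23707 genes to be tested. Root RNA of sorghum (Sorghum bicolor) was compared between the brassinosteroid receptor mutant bri1-ems72 and WT-ems72, its sibling with the wild-type receptor; both were BC2F2 plants, so that parts of the genome outside BRI1 may still segregate. Each genotype had 3 biological replicates, each an RNA pool of at least 6 roots from untreated plants that had grown in vitro for 8 days at 28 °C from embryos explanted 13 to 17 days after anthesis. The mutant is represented by 1 EMS allele, and the labels do not give the alleles that the plants carried at Dw1, Dw2 or Dw3.

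The 3 genes act in different ways on the growth of stem internodes. Dw1 encodes a protein reported as a positive regulator of brassinosteroid signalling, the pathway that starts at the receptor kinase BRI1 and passes through the inhibitory kinase BIN2. Dw2 encodes a protein kinase of the plant AGC family. Dw3 encodes the ABCB1 transporter, which carries auxin out of cells. Brassinosteroids and auxin both control cell elongation in roots as well as in stems. The comparison of the genotypes asked which root transcripts differ when the brassinosteroid receptor is mutated.

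All 3 genes were read in every root pool. After the 2 technical columns of a pool were summed, pools held 44357644 to 54629427 counts, and the lowest count of a dwarfing gene in any pool was 772 for Dw1, 1857 for Dw2 and 865 for Dw3. Counting alone gives a coefficient of variation of 3.07% on average for Dw1, 2.11% for Dw2 and 2.70% for Dw3, so counting error was small against the differences between pools given below. Levels are given as CPM, each count relative to the library's size after TMM scaling. They are not divided by transcript length, so levels of different genes are not set against each other. RNA was bulk, and fewer cells of a type cannot be told apart from less RNA per cell. BRI1 (Sobic.003G277900), the mutated gene, stood at 75.0 to 88.5 CPM in WT-ems72 and 97.9 to 106.9 CPM in bri1-ems72. These ranges did not overlap, as for 4.58% of the tested genes. BRI1 was not called at an adjusted p below 0.05 (log2 fold change 0.28, SE 0.17, edgeR unadjusted p = 0.144). Its levels do not check the genotype labels, since a point mutation need not change the transcript level.

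Dw1 had close mean levels in both genotypes. Among the wild-type pools it had 16.7 CPM in replicate 1, 24.1 in replicate 2 and 26.2 in replicate 3. Among the mutant pools it had 19.96 CPM in replicate 1, 21.6 in replicate 2 and 27.0 in replicate 3. The lowest pool was a wild-type pool and the highest a mutant pool, but the ranges overlapped over most of their length. The wild-type mean was 22.3 ± 5.02 CPM and the mutant mean 22.8 ± 3.68 CPM (SD over 3 pools each).

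Dw1 had a log2 fold change of 0.033 for bri1-ems72 over WT-ems72, with an SE of 0.24 and a 95% interval of -0.54 to 0.61. With p-values adjusted over all tested genes it was not called (adjusted p = 1.00, edgeR's quasi-likelihood test). On the linear scale the interval runs from 0.688-fold to 1.52-fold, so larger differences in either direction lay outside it. An exact two-sided permutation test of log2 CPM gave p = 0.9, where 0.1 is the smallest p that 3 pools against 3 can give. The sign rested on single pools: it was -0.14 without WT-ems72 replicate 1 and -0.11 without bri1-ems72 replicate 3.

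Dw2 had the narrowest range of the 3 dwarfing genes. The wild-type pools had 47.0 CPM in replicate 1, 50.1 in replicate 2 and 42.0 in replicate 3. The mutant pools had 43.4 CPM in replicate 1, 46.1 in replicate 2 and 51.7 in replicate 3. Both genotypes covered nearly the same range, with the lowest value in a wild-type pool and the highest in a mutant pool, 1.23-fold apart. The means were 46.4 ± 4.06 CPM and 47.1 ± 4.21 CPM (SD, n = 3 each).

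For Dw2 the log2 fold change was 0.022 (SE 0.17, 95% interval -0.37 to 0.41; edgeR adjusted p = 1.00), and the exact two-sided permutation test gave p = 0.8. The interval ran from 0.774-fold to 1.33-fold, and only 2.15% of the tested genes had a narrower one on the log2 scale. The genotype difference of this AGC kinase gene was thus bounded more tightly than that of most tested genes. By mean CPM, 77.3% of the tested genes lay below Dw2, and interval widths were not compared at equal levels. The Dw2 sign also turned when single pools were left out, to -0.048 without WT-ems72 replicate 3 and to -0.051 without bri1-ems72 replicate 3.

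Dw3, the auxin transporter gene, had a higher mean in bri1-ems72 but varied most between pools. The wild-type pools had 30.6 CPM in replicate 1, 28.7 in replicate 2 and 15.7 in replicate 3. The mutant pools had 26.0 CPM in replicate 1, 55.4 in replicate 2 and 32.5 in replicate 3. The single high pool was bri1-ems72 replicate 2 and the single low pool was WT-ems72 replicate 3, while the other 4 pools lay between 26.0 and 32.5 CPM and the genotypes overlapped there. The highest pool was 3.52-fold above the lowest. The wild-type mean was 25.0 ± 8.09 CPM and the mutant mean 38.0 ± 15.5 CPM (SD over 3 pools each).

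Dw3 had a log2 fold change of 0.60, with an SE of 0.37 and a 95% interval of -0.27 to 1.48, and was not called (edgeR adjusted p = 1.00). The exact two-sided permutation test gave p = 0.4. The interval included no difference, a fall to 0.830-fold and a rise to 2.78-fold, so that the data bound a fall of Dw3 more closely than a rise. The value was 0.22 with bri1-ems72 replicate 2 left out and 0.35 with WT-ems72 replicate 3 left out. Leaving out any of the other 4 pools gave 0.70 to 0.80. With the number in the sample titles as a replicate block, which the labels do not explain and which pairs 2 pools of each genotype, it was 0.95 (95% interval 0.46 to 1.44, edgeR unadjusted p = 0.00314, adjusted p = 0.480).

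**Figure D1:**
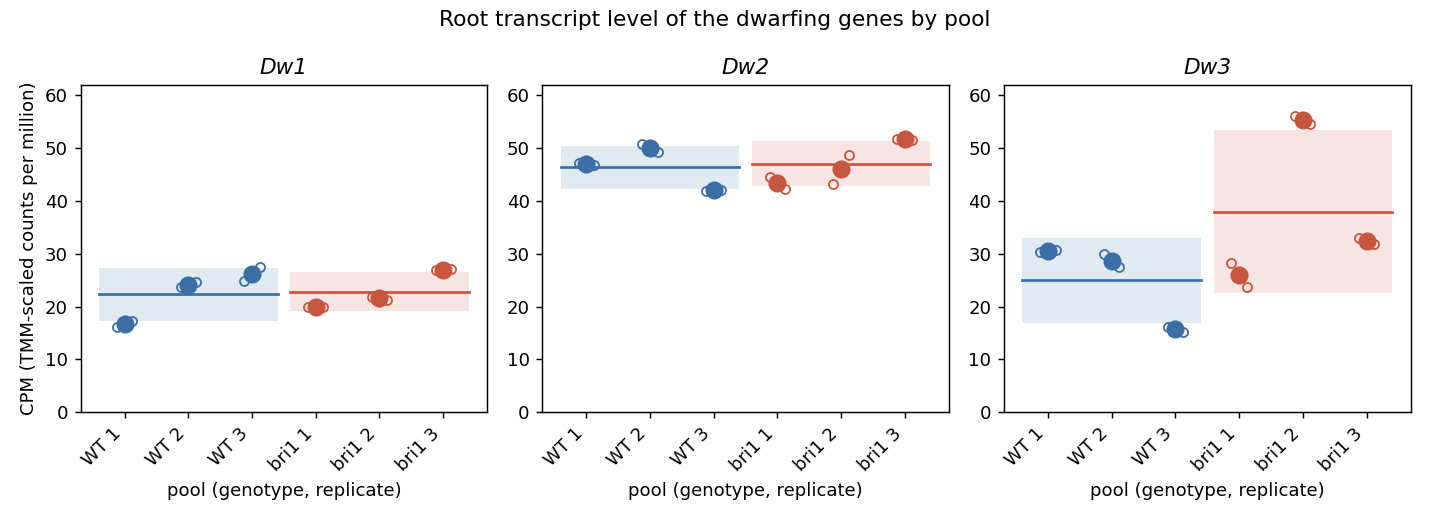
TMM-scaled CPM of Dw1, Dw2 and Dw3 in each pool, with WT-ems72 in blue and bri1-ems72 in red. Large points are pools, small open points the 2 technical columns of a pool, lines and shaded bands the mean ± SD of 3 pools. The genotypes overlap for all 3 genes, and Dw3 has 1 high mutant pool (55.4 CPM) and 1 low wild-type pool (15.7 CPM).

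Of the 3 dwarfing genes, 0 were called in either direction at an adjusted p below 0.05, as were 0% of the 23707 tested genes. At an unadjusted p below 0.05 there were 0 of 3, against 1.42% of all tested genes (337 genes). With the title number as a replicate block Dw3 was among 1311 of 23707 tested genes below that threshold, and 0 were called. DESeq2 and limma-voom also called 0 of 3. The CPM ranges of the genotypes were apart for 0 of 3, against 4.58% of the tested genes. A missed threshold does not show that the genotypes have equal levels, and the intervals above, which are not adjusted over genes, give the sizes of difference that these pools leave possible.

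**Figure D2:**
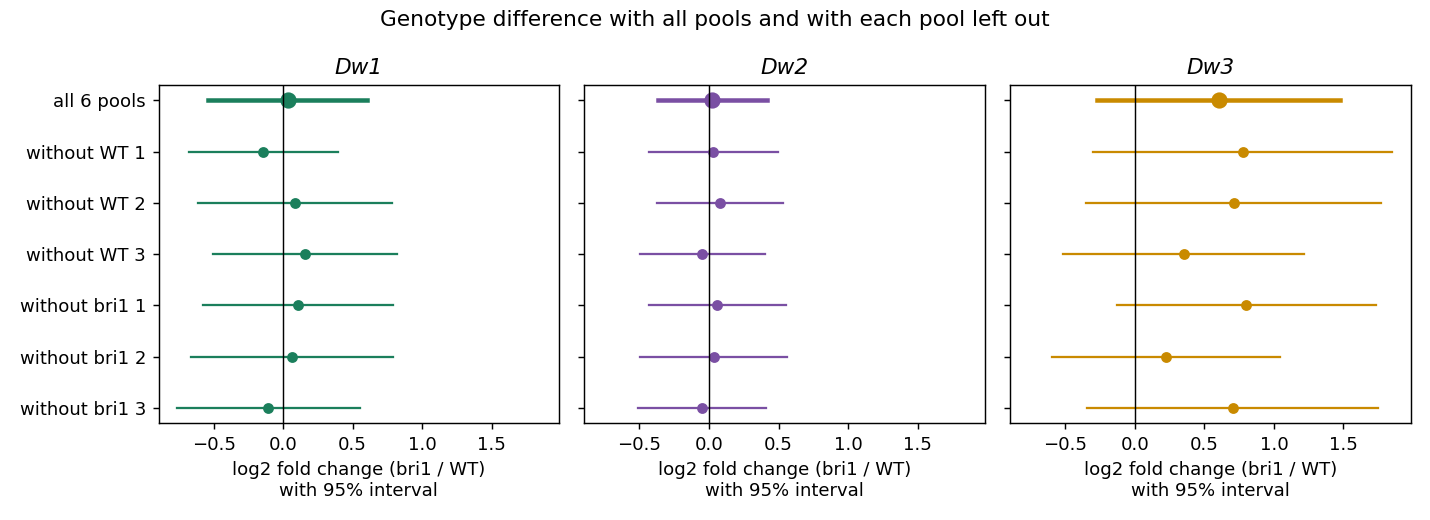
Log2 fold change of bri1-ems72 over WT-ems72 (points) with its 95% interval (lines) from the edgeR fit, for all 6 pools (top row) and with each pool left out. Every interval shown crosses 0; that of Dw2 is the narrowest with all pools (-0.37 to 0.41), and the Dw3 value falls from 0.60 to 0.22 without bri1-ems72 replicate 2.

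Within a genotype the 3 genes differed in how much their pools varied. The SD of log2 CPM between pools of the same genotype was 0.29 for Dw1, 0.13 for Dw2 and 0.54 for Dw3, with a median of 0.40 over the tested genes. Of the tested genes, 34.0% had a smaller SD than Dw1, 4.81% a smaller one than Dw2 and 66.0% a smaller one than Dw3. Dw2 thus lay near the steady end of root genes, beside BRI1 (0.11, with 2.80% of genes below it), and Dw3 in the more variable part. The coefficient of variation over all 6 pools was 17.5% for Dw1, 7.97% for Dw2 and 41.7% for Dw3. Whether the genes differ in variance was not tested.

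**Figure D3:**
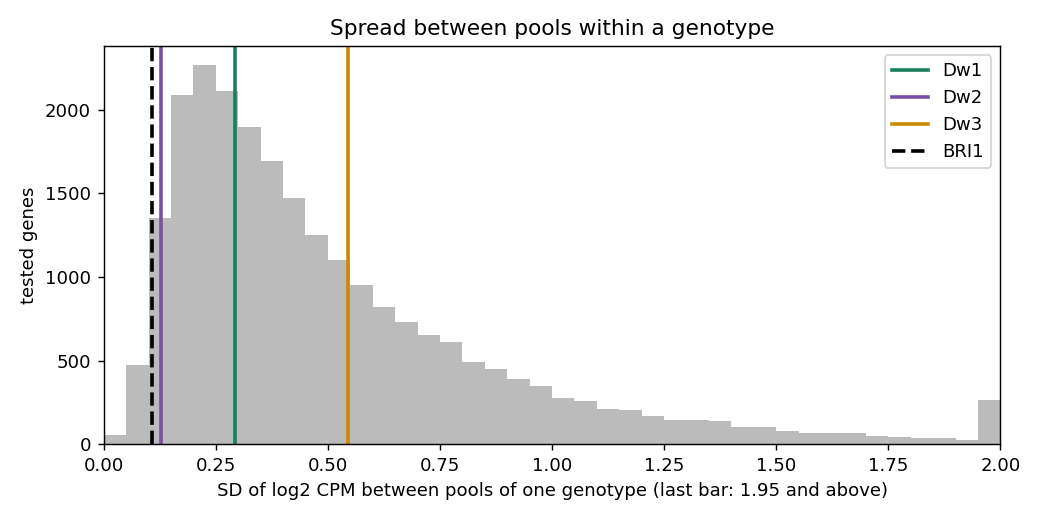
Number of tested genes (bars) by the SD of log2 CPM between pools of the same genotype, with vertical lines at Dw1, Dw2, Dw3 and BRI1 (dashed). Dw2 (0.13) and BRI1 (0.11) lie at the low end, Dw1 (0.29) below the median of 0.40 and Dw3 (0.54) above it.

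The technical columns of a pool lay close together in most pools for all 3 genes. Between the 2 columns of a pool, CPM differed by at most 10.5% for Dw1, 12.6% for Dw2 and 16.0% for Dw3. The chi-square of the 2 columns, summed over the 6 pools with 6 degrees of freedom, was 5.05 for Dw1, 10.3 for Dw2 and 12.5 for Dw3, where counting noise gives about 6. Most of the Dw2 sum came from bri1-ems72 replicate 2 (8.48) and most of the Dw3 sum from bri1-ems72 replicate 1 (8.45). In the high Dw3 pool, bri1-ems72 replicate 2, both columns were high, with 56.1 and 54.7 CPM. In the low pool, WT-ems72 replicate 3, both were low, with 16.2 and 15.3 CPM. Both columns of each extreme pool thus carried the Dw3 value of that pool. The widest gap for Dw2 was in bri1-ems72 replicate 2, whose columns had 43.3 and 48.8 CPM, both inside the range of its pools.

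The 3 dwarfing genes had their extremes in different pools. Dw1 was lowest in WT-ems72 replicate 1, whereas Dw2 and Dw3 were lowest in WT-ems72 replicate 3. Dw1 and Dw2 were both highest in bri1-ems72 replicate 3, and Dw3 in bri1-ems72 replicate 2. Over the 6 pools, Pearson's r of log2 CPM was 0.20 for Dw1 and Dw2 (exact permutation p = 0.689, adjusted over 3 relations 0.689) and Spearman's rho was 0.26 (exact permutation p = 0.658, adjusted 0.988). For Dw1 and Dw3, r was -0.28 (exact permutation p = 0.628, adjusted 0.689) and rho was -0.029 (exact permutation p = 1, adjusted 1). For Dw2 and Dw3, r was 0.47 (exact permutation p = 0.329, adjusted 0.689) and rho was 0.60 (exact permutation p = 0.242, adjusted 0.725).

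None of the 3 relations passed a threshold of 0.05. With the 2 pools farthest from the median of the first-named gene left out, r was -0.0099, -0.57 and 0.0097 in the same order. After the genotype means were removed, r over the 6 pools was 0.19 for Dw1 and Dw2, -0.40 for Dw1 and Dw3, and 0.49 for Dw2 and Dw3. The r of Dw2 and Dw3 was -0.024 without WT-ems72 replicate 3 and 0.81 without bri1-ems72 replicate 2, so its size rested on those pools.

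Ratios of counts within a pool do not depend on how libraries are scaled, and they were taken after the levels were seen. Counts of Dw3 per count of Dw1 were 1.84, 1.19 and 0.600 in WT-ems72 replicates 1, 2 and 3. In the bri1-ems72 replicates they were 1.30, 2.57 and 1.20. The lowest ratio was in a wild-type pool and the highest in a mutant pool, with the other 4 mixed, and the log2 ratio was 0.54 higher on average in the mutant (exact two-sided permutation p = 0.4, adjusted over 3 ratios 0.6). Counts of Dw3 per count of Dw2 were 0.651, 0.573 and 0.374 in WT-ems72 and 0.598, 1.20 and 0.629 in bri1-ems72, a mean log2 difference of 0.56 (exact two-sided permutation p = 0.3, adjusted 0.6). For Dw1 per Dw2 the ratios were 0.355, 0.481 and 0.624 in WT-ems72 and 0.459, 0.468 and 0.522 in bri1-ems72, a mean log2 difference of 0.025 (exact two-sided permutation p = 1, adjusted 1). A larger genotype difference of Dw3 than of Dw1 or Dw2 was not shown by these tests.

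The genes next to each dwarfing gene were described by ID order, taking 10 genes on each side. Around Dw1, on chromosome 9, 15 of 20 neighbours were tested and 0 were called, with log2 fold changes from -0.65 to 0.16 (median -0.099). Around Dw2, on chromosome 6, 14 of 20 were tested and 0 were called, with values from -0.39 to 0.29 (median -0.085). Around Dw3, on chromosome 7, 14 of 20 were tested and 0 were called, but the values ran more widely, from -1.58 to 1.78 (median 0.075). Both of these extremes were imprecise. The lowest had an SE of 1.02 at a mean of 2.37 CPM, and the highest an SE of 1.06 at 0.417 CPM (114 counts over all pools). The median over all tested genes was -0.012. At an unadjusted p below 0.05 there were 0, 0 and 2 neighbours (edgeR), and DESeq2 called 0 of these neighbours.

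The 2 neighbours of Dw3 with an unadjusted p below 0.05 had differences of opposite sign; they and the gene named after them were picked once their values were known. Sobic.007G163400, 6 places before Dw3, had a log2 fold change of 0.98 (SE 0.38, edgeR unadjusted p = 0.0366). Sobic.007G164050, 3 places after it, had -1.50 (SE 0.47, edgeR unadjusted p = 0.0151) on only 118 counts over all pools, with every mutant pool below every wild-type pool. Sobic.007G164300, 7 places after Dw3, had 0.31 (SE 0.18), with every mutant pool above every wild-type pool. Neither the high nor the low Dw3 pool was matched by the neighbours as a group. In bri1-ems72 replicate 2, Dw3 stood 0.91 above its own mean log2 CPM, and the neighbours' median was 0.052 above theirs, with 0 of 14 as far above as Dw3. In WT-ems72 replicate 3, Dw3 stood at -0.90 and the neighbours' median at -0.19, with 13 of 14 above Dw3.

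**Figure D4:**
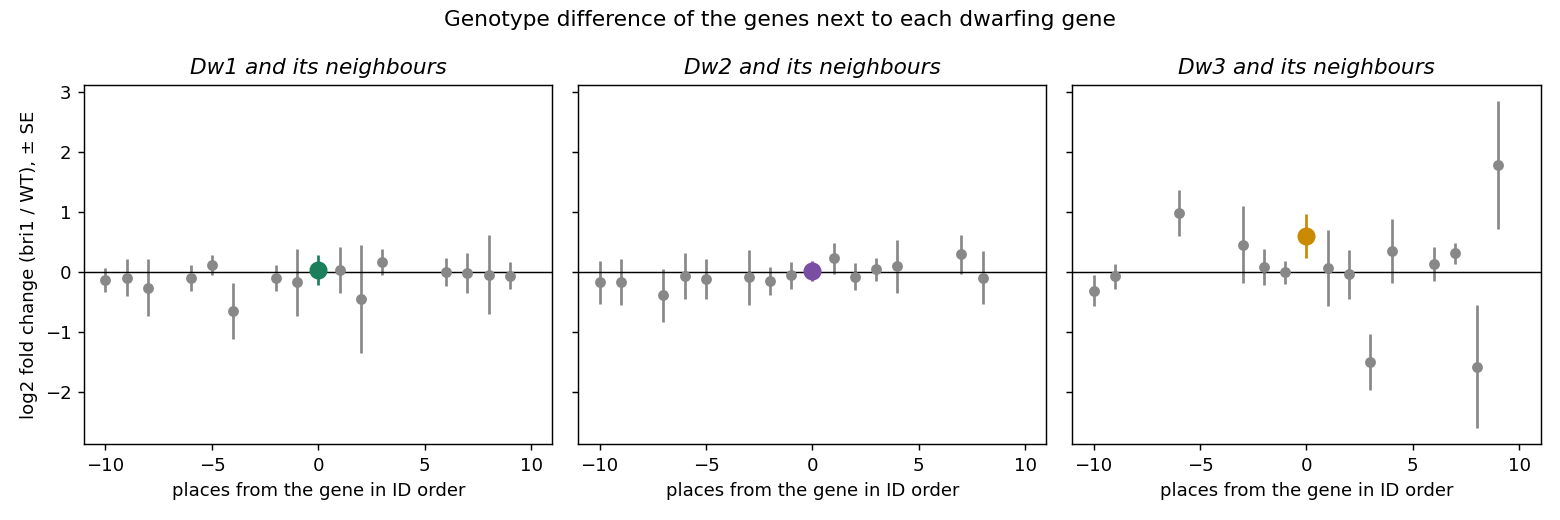
Log2 fold change of bri1-ems72 over WT-ems72 ± SE for Dw1, Dw2 and Dw3 (coloured, at 0) and the tested genes up to 10 places before or after each in ID order (grey). Neighbours of Dw1 and Dw2 lie between -0.65 and 0.29, those of Dw3 between -1.58 (SE 1.02) and 1.78 (SE 1.06), and none was called.

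The genes whose pool profile was most like that of each dwarfing gene were found by the root mean square difference of log2 CPM over the 6 pools, after each gene was centred on its own mean. For Dw1 these were Sobic.009G017200, at a difference of 0.034, and Sobic.007G009000, at 0.050. For Dw2 they were Sobic.002G380200, at 0.030, and Sobic.008G139800, at 0.031. For Dw3 they were Sobic.001G325600, at 0.11, and Sobic.009G014200, at 0.12. A difference below 0.1 was found for 126 genes with Dw1, 338 with Dw2 and 0 with Dw3. This count depends on how widely a gene varies, so it does not compare the shapes of the 3 profiles.

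The gene nearest to Dw3 had the same high and low pools. In the wild type, Sobic.001G325600 had 26.3 CPM in replicate 1, 27.8 in replicate 2 and 14.5 in replicate 3. In the mutant it had 21.6 CPM in replicate 1, 47.5 in replicate 2 and 25.0 in replicate 3. Its log2 fold change was 0.46 (SE 0.38, edgeR adjusted p = 1.00). These genes were picked as the nearest of 23707, so their likeness is a description of these 6 pools and carries no test.

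**Figure D5:**
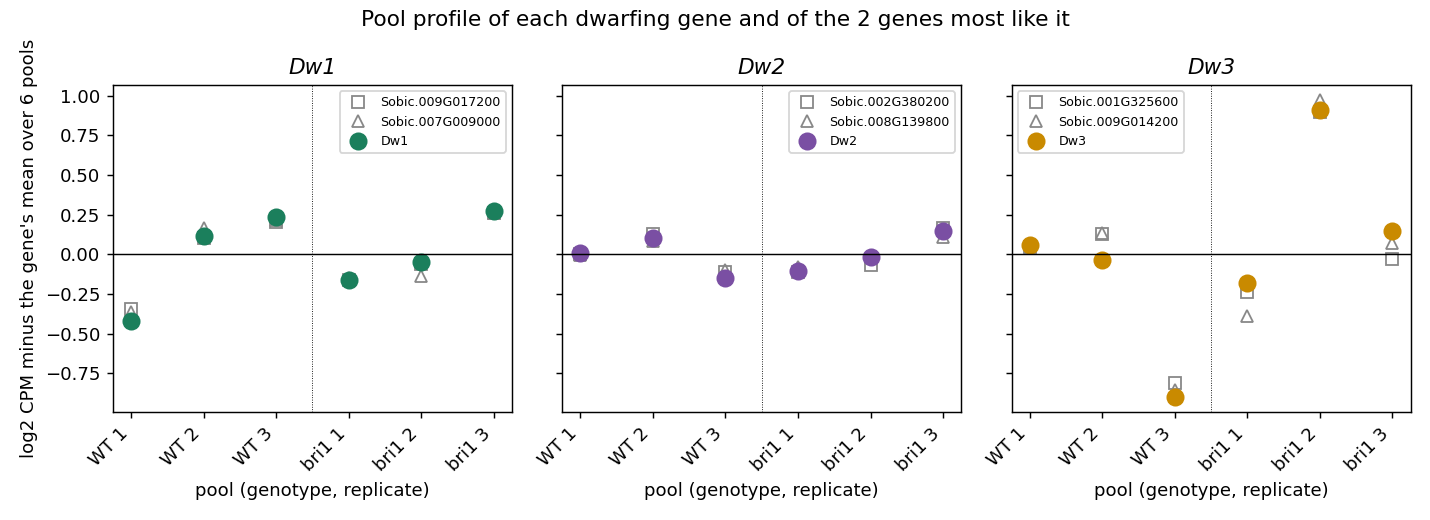
Log2 CPM of each dwarfing gene (filled circles) and of the 2 genes most like it (open symbols) in each pool, relative to the gene's own mean over 6 pools, with WT-ems72 left and bri1-ems72 right of the dotted line. Dw3 runs from -0.90 in WT-ems72 replicate 3 to 0.91 in bri1-ems72 replicate 2, Dw1 from -0.42 to 0.28 and Dw2 from -0.15 to 0.15.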

How the data were processed

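The authors deposited raw counts per gene, whole numbers that were not normalized. The submitters' processing notes name HISAT2 2.1.0 and featureCounts 1.6.2, and also Trimmomatic 0.38; per the labels' protocols, libraries were stranded and read as pairs of 100 nt. Genome build, annotation version and strand setting: not given in the sources used here. How reads of overlapping or near-identical genes were assigned is therefore not known here. Each of 6 column names stood on 2 columns, the technical runs of a pool, which were summed.

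Counts were tested across all genes with edgeR 4.0.16 in R 4.3.3: filterByExpr, TMM, a robust quasi-likelihood fit with genotype as the only term, two-sided, Benjamini-Hochberg over 23707 genes at 0.05. Log2 CPM used a prior count of 2. DESeq2 1.42.0 and limma 3.58.1 (voom) were alternatives, as were other scalings, filters, replicate blocks, single columns and each pool left out. The fit was tested on simulated data. The dwarfing genes and the rules were chosen with earlier results of these data known.

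The rule for named genes took the 3 dwarfing genes, BRI1, the 2 genes nearest in pool profile to each, and called neighbours, of which there were 0; 3 neighbours of Dw3 and 1 gene beyond them are named outside this rule, after their values were seen. Of 34129 IDs, 0 matched the RefSeq gene table, as written or in locus-tag form, so gene names and roles come from the literature, lists by product text were not used, and the tissue label was not checked against markers. Neighbours follow ID order, and the chromosome is the number in the ID.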

Additional observations from a re-analysis of the deposited data

How the results depend on the processing

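Over 16 alternatives of the fit, 15 called 0 genes in either direction, and DESeq2 called 3 higher and 1 lower, none of them a dwarfing gene; the cause was not tested. Dw1, Dw2, Dw3 and BRI1 were called in 0 of 16. Dw3 kept its sign in all 16 (0.59 to 0.95, and 0.22 to 0.80 with each pool left out), as did BRI1 (0.27 to 0.34, and 0.20 to 0.32). Dw1 turned with the second-listed columns alone (-0.022) and ranged from -0.14 to 0.16 with each pool left out. Dw2 turned with the first-listed columns alone (-0.0016) and ranged from -0.051 to 0.077 with each pool left out. With each pool left out, r ranged from -0.20 to 0.68 for Dw1 and Dw2, from -0.40 to 0.091 for Dw1 and Dw3, and from -0.024 to 0.81 for Dw2 and Dw3 (exact permutation p = 0.0417 at 0.81, not adjusted). Without the 2 farthest pools r of Dw1 and Dw2 was -0.0099.

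The replicate block by description number gave log2 fold changes of 0.047 for Dw1, 0.022 for Dw2 and 0.59 for Dw3, and 0 calls. Pools with the same description number deviated from their genotype means with correlations over genes of 0.044, -0.23 and 0.40. The main fit used no pairing, since the labels do not say that equal replicate numbers share a day or batch. With the title number as replicate block, which rests on 2 pairs, the values were 0.21, 0.14 and 0.95, with 0 calls. For Dw3 this was the only interval that left out 0, among the fits that give one (0.46 to 1.44, edgeR unadjusted p = 0.00314, adjusted p = 0.480). The 2 title pairs had correlations of 0.39 and 0.40, and the other pairings of a wild-type with a mutant pool had -0.40 to 0.24. Deviations from a genotype mean cancel over its pools, so a high correlation in some pairings forces lower ones in others. These correlations therefore do not test the block. In the title pairs Dw3 went from 30.6 CPM in the wild type to 55.4 in the mutant and from 15.7 to 32.5 CPM. The pools without a title partner had 28.7 CPM in the wild type and 26.0 in the mutant. What the title number marks is not stated in the labels, and fewer than 3 pairs share it, which leaves this fit few residual degrees of freedom. This block had 1311 of 23707 tested genes at an unadjusted edgeR p below 0.05, against 337 without a block. Whether the block improves the fit was not tested. Gene lists were not run under any setting. The dwarfing genes had at least 772 counts in every pool.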

Other observations

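Just beyond the neighbours described around Dw3, 11 places after it in ID order, lies Sobic.007G164750, singled out here after its values were seen. Its wild-type pools had 0.302 CPM in replicate 1, 0.321 in replicate 2 and 0.273 in replicate 3. Its mutant pools had 1.71 CPM in replicate 1, 8.87 in replicate 2 and 15.01 in replicate 3. Every mutant pool was above every wild-type pool. DESeq2 called it (log2 fold change 4.83, SE 0.73, adjusted p = 8.67e-07), whereas the edgeR quasi-likelihood test did not (unadjusted p = 0.000619, adjusted p = 1.00). Its highest pool was bri1-ems72 replicate 3, where Dw3 had 32.5 CPM, and not bri1-ems72 replicate 2, where Dw3 was highest with 55.4 CPM. The 14 tested genes within 10 places of Dw3 had a median log2 fold change of 0.075. For 2 of them the genotypes did not overlap, against 4.58% of all tested genes. Those 2 differed in opposite directions. Sobic.007G164050 was lower in the mutant, on 118 counts over all pools, and Sobic.007G164300 was higher (log2 fold change 0.31). Whether 2 of 14 exceeds the share over all genes was not tested.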
